A study of Mus musculus with 8 samples.

Results

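The G1 cyclins, their kinases and the Cip/Kip inhibitors were followed here across 8 mRNA libraries of Neuro2A (N2A) cells given HU210 or DMSO alone. The genes were taken by symbol from the table of all genes: the cyclin genes Ccnd1, Ccnd2, Ccnd3, Ccne1 and Ccne2, the kinase genes Cdk4 and Cdk6, and the inhibitor genes Cdkn1a, Cdkn1b and Cdkn1c. These are 10 of 16980 genes in the table. At a mean level of at least 1 FPKM (a read density per transcript length), 7 of the 10 genes were expressed. None of the 7 passed a test of HU210 against DMSO, of late against early hours or of the change of the drug effect with time. In each of these tests 0 of all 11306 genes tested passed. Of the members, 26 of 28 comparisons of a gene at a single hour lay within 1.3-fold. The 2 exceptions were lower Ccne2 and lower Cdkn1b with HU210 at 4 h. Both came within 1.3-fold once the trend of that pair of libraries on GC content and transcript length was removed. Past 1.3-fold at 4 h, 8.97% of all tested genes were higher and 19.9% lower. The shares higher and lower were 1.49% and 3.91% at 2 h, 6.39% and 1.72% at 6 h, and 4.38% and 1.44% at 8 h.

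The N2A line derives from a mouse neuroblastoma, and HU210 is a potent agonist of the cannabinoid 1 receptor. All cells were kept for 16 h without serum, in medium with bovine serum albumin, and then received either 2 µM HU210 dissolved in DMSO or drug-free DMSO. Collection after 2, 4, 6 or 8 h gave 4 HU210 and 4 DMSO libraries, 1 for each treatment and hour. Each library holds the pooled mRNA of 2 to 3 experiments, so that a difference at a single hour has no replicate check. The hours were therefore used as the repeats of a comparison, and the spread between them holds both noise and any change of an effect with time.

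Passage from G1 into S phase is governed by cyclin-dependent kinases. D-type cyclins bind Cdk4 or Cdk6 and E-type cyclins bind Cdk2, and both kinds of kinase phosphorylate the retinoblastoma protein family and so free E2F factors, which drive the genes of DNA synthesis. The Cip/Kip proteins p21 (Cdkn1a), p27 (Cdkn1b) and p57 (Cdkn1c) bind these complexes. The 10 genes encode the proteins CCND1, CCND2, CCND3, CCNE1, CCNE2, CDK4, CDK6, CDKN1A, CDKN1B and CDKN1C. Serum mitogens raise D-type cyclins, p53 induces p21, and neuroblasts that leave the cell cycle to differentiate commonly carry p27 or p57.

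Of the 10 genes, 6 matched the RefSeq promoter table (GRCm38.p6), which is another build than that of the expression values. The stretches shown are the 250 bases before an annotated start of Cdk4, the most abundant member, of Cdkn1a, whose known inducer is p53, and of Cdkn1b, a gene past 1.3-fold at 4 h. Capitals mark the E-box CACGTG in Cdk4, the p53 half-site before the upstream start of Cdkn1a, and the GC box GGGCGG on either strand before its downstream start and in Cdkn1b.
Cdk4, chr10:127063285-127063534, + strand: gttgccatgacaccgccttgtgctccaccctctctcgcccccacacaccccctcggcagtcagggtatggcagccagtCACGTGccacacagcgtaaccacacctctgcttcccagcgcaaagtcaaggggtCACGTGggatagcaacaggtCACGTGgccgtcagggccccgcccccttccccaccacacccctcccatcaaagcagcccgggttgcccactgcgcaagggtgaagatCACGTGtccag
Cdkn1a, chr17:29090729-29090978, + strand: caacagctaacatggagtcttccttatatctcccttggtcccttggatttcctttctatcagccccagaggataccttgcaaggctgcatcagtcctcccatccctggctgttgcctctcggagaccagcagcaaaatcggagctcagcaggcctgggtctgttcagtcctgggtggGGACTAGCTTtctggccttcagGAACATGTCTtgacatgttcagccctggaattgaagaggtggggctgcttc
Cdkn1a, chr17:29093519-29093768, + strand: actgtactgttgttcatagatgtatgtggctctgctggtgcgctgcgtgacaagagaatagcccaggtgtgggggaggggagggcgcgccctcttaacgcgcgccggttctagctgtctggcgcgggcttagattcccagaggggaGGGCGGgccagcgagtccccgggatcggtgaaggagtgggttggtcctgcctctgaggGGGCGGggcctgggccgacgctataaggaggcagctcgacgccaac
Cdkn1b, chr6:134920151-134920400, + strand: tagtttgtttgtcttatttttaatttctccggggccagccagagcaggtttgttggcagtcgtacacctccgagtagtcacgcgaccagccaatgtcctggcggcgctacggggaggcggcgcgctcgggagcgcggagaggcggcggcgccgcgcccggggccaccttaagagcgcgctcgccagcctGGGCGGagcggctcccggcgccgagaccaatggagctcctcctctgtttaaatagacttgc
The Cdk4 stretch held 4 E-boxes, the sequence bound by Myc and Max, starting 172, 118, 98 and 11 bases before the start. Among 32851 such stretches of the table, 6.02% held at least 1 E-box and 7 held at least 4. The upstream start of Cdkn1a had 2 p53 half-sites, which 7.13% of the stretches hold at least once. The GC box was present in 32.7% of all stretches. The E2F words TTTGGCGC, TTTCCCGC, TTTCGCGC and TTTGCCGC, searched on both strands, were in 1.86% of all stretches and in none of those of Ccnd3, Ccne1, Cdk4, Cdk6, Cdkn1a and Cdkn1b.

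Levels are given as FPKM, the fragments mapped to a transcript scaled to its length and to a factor for the library. That factor came here from upper-quartile normalization. The unit is one per length, in which genes can be compared. Each library had 11328 to 11444 genes with an FPKM of at least 1, and 11306 genes with a mean FPKM of at least 1 over the 8 libraries were tested. The number of reads behind a value is unknown from the FPKM. The labelled cell line was checked against marker genes. Of 17 neuroblastoma or sympathoadrenal markers, 13 had values at each of the 4 hours and a mean of at least 1 FPKM, with summed levels of 571 to 645 FPKM in the DMSO and 545 to 687 FPKM in the HU210 libraries, and the other 4 had no values at 1 or more hours. Of the immune markers 0 of 6 reached a mean of 1 FPKM, of the fibroblast markers 1 of 7, of the glial markers 2 of 7 and of the endothelial markers 1 of 4. The pair of libraries at 4 h stood apart: the log2 changes of all tested genes had an SD of 0.40, against 0.21 to 0.23 at the other hours, and a Spearman correlation of 0.53 with the GC content of the transcript over 10585 genes, which share their libraries.

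Among the D-type cyclins, Ccnd1 (ENSMUSG00000070348, mm9 chromosome 7 from 152115836 to 152125774) was the main one. It had 98.8, 105, 103 and 121 FPKM with HU210 at 2, 4, 6 and 8 h, and 95.9, 93.0, 107 and 101 FPKM with DMSO. The ranges of both treatments overlapped, and the 8 h HU210 library was the highest. Ccnd3 (mm9 chromosome 17 from 47642000 to 47736632) had 24.5, 27.6, 28.2 and 24.7 FPKM with HU210 and 21.6, 23.0, 25.9 and 22.2 FPKM with DMSO. Each HU210 value lay above the DMSO value of its hour, but the ranges overlapped. Ccnd2 (mm9 chromosome 6) was between 0.0140 and 0.0510 FPKM in the 8 libraries, at percentile 10.3 of the level of all genes listed at each hour. Ccnd1 thus made up 78.4% to 82.9% of the summed D-type cyclin mRNA in a library.

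Cdk4 (ENSMUSG00000006728, mm9 chromosome 10 from 126500590 to 126504976), the kinase partner of the D-type cyclins, was the most abundant member, at percentile 99.1 of the level of all genes. Its values were 478, 481, 372 and 381 FPKM with HU210 and 434, 380, 400 and 371 FPKM with DMSO. The 2 early HU210 libraries were the highest of the 8. Cdk6, the alternative kinase partner, was listed at 0 in 5 of the 8 libraries and had at most 0.0118 FPKM.

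The E-type cyclins start S phase with Cdk2. Ccne1 (ENSMUSG00000002068, mm9 chromosome 7 from 38883003 to 38892553) had 25.7, 24.8, 25.4 and 23.0 FPKM with HU210 and 27.1, 27.1, 21.5 and 23.2 FPKM with DMSO. Its values spanned 1.26-fold over the 8 libraries. Ccne2 (ENSMUSG00000028212, mm9 chromosome 4 from 11118498 to 11131926) had 15.8, 12.5, 16.8 and 15.8 FPKM with HU210 and 20.1, 18.8, 13.3 and 13.9 FPKM with DMSO. The early DMSO libraries were the 2 highest, and the 4 h HU210 library was the lowest. Ccne2 spanned 1.61-fold, and its SD of 0.23 on the log2 scale over the 8 libraries was the largest of the 7 members, at percentile 82.2 of all tested genes, whose median was 0.15.

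Among the inhibitors, Cdkn1a (ENSMUSG00000023067, mm9 chromosome 17 from 29227924 to 29237667), the p53-induced inhibitor whose start regions are shown above, had 39.3, 33.6, 30.7 and 36.6 FPKM with HU210 and 33.3, 26.5, 32.6 and 30.7 FPKM with DMSO. The 2 h HU210 library was the highest and the 4 h DMSO library the lowest, with the other values of both treatments between them. Cdkn1b (ENSMUSG00000003031, mm9 chromosome 6 from 134870419 to 134875531), an inhibitor typical of quiescent cells, had 25.4, 21.2, 31.1 and 26.2 FPKM with HU210 and 28.9, 28.7, 25.1 and 24.2 FPKM with DMSO. The HU210 libraries held both its lowest value, at 4 h, and its highest, at 6 h. Cdkn1c, the third inhibitor, had between 0.00923 and 0.0498 FPKM in the libraries of 2, 4 and 6 h and has no value here at 8 h.

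**Figure D1:**
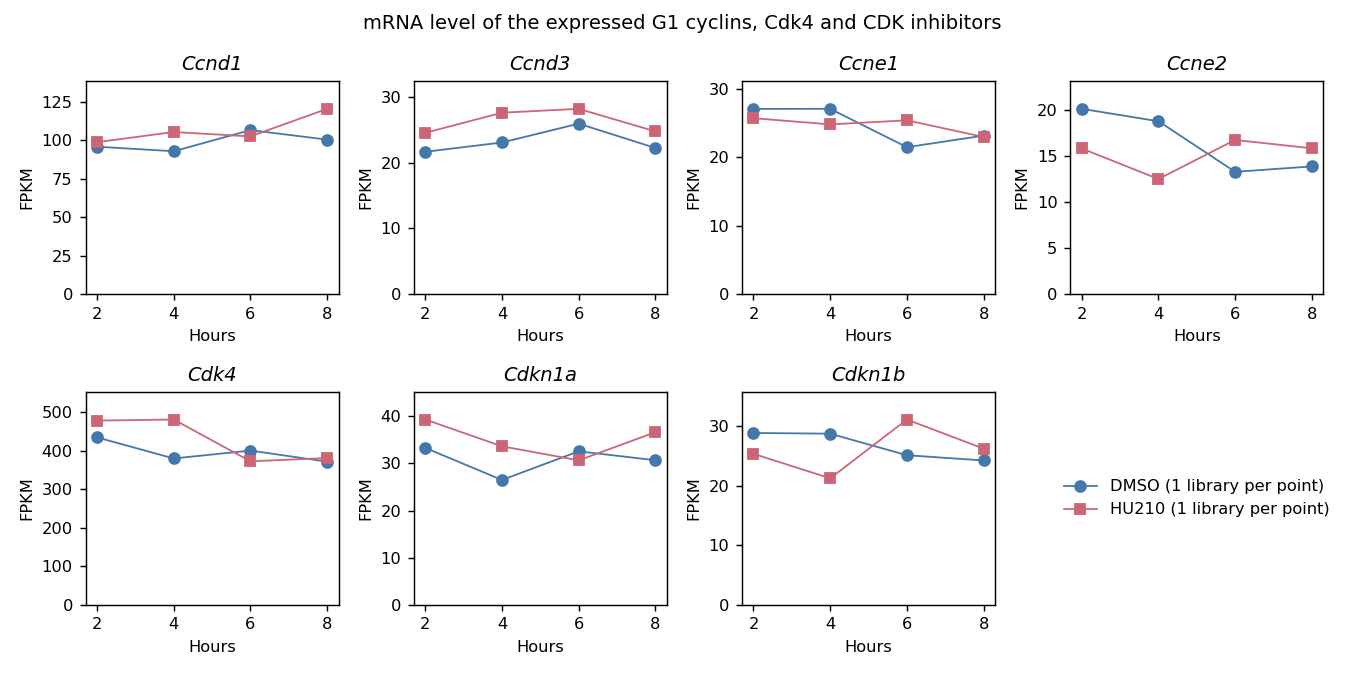
FPKM (vertical axes, from 0) of the 7 expressed members at 2, 4, 6 and 8 h (horizontal axes) in the DMSO (circles) and HU210 (squares) libraries, 1 library per point. The lines of both treatments cross for 6 of the 7 genes, all but Ccnd3, whose HU210 value was higher at each hour.

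In order of mean level, Cdk4 (412 FPKM) stood 4.00-fold above Ccnd1 (103 FPKM), which stood 3.13-fold above Cdkn1a (32.9 FPKM), with no overlap of the ranges. Cdkn1a, Cdkn1b (26.4 FPKM), Ccne1 (24.7 FPKM) and Ccnd3 (24.7 FPKM) followed, and each neighbour in this order overlapped the next. Cdkn1a was above Cdkn1b in 6 of 8 libraries, and Ccne1 was above Ccnd3 in 4 of 8. Ccne2 (15.9 FPKM) was the lowest of the 7, below Ccnd3 in 8 of 8 libraries. The annotation places exons of a gene of the opposite strand over the ends of 4 expressed members, Oraov1 over Ccnd1, Bysl over Ccnd3, Ints8 over Ccne2 and Tspan31 over Cdk4, by 353 to 818 bases. The study names a library kit that keeps the strand, but whether the counting used it is not given in the sources used here, so the values of these genes may include reads of the other gene.

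The comparison at each hour asked which members moved when the receptor was stimulated. The log2 change is the difference in log2(FPKM + 1) between the HU210 and the DMSO library of an hour, a scale that understates changes of weakly expressed genes. At 4 h, 2 of the 7 expressed members were past 1.3-fold, both lower with HU210, where 19.9% of all tested genes were lower and 8.97% higher by that much. Of the genes past 1.3-fold, 31.1% were higher at 4 h, and 48.2% once the median change of the pair was set to 0. The same centring moved that share from 27.5% to 41.0% for the 2 h pair, from 78.8% to 61.2% for the 6 h pair and from 75.2% to 62.2% for the 8 h pair. Ccne2 had a log2 change of -0.55 at 4 h, and 13.4% of the tested genes had a larger one in either direction. Cdkn1b had one of -0.42, and 24.4% had a larger one. Their transcripts had the lowest GC content of the 7, 36.3% for Ccne2 and 43.1% for Cdkn1b. Once the GC and length trend was taken out, their changes at 4 h were -0.28 and -0.081, and with the DMSO mean over all hours as the reference they were -0.35 and -0.31, all within 1.3-fold. The part of the GC trend in these values was not tested beyond this. At 1.5-fold, 0 of 7 members passed at 4 h, where 2.77% of all tested genes were higher and 8.69% lower.

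At 4 h, Cdk4 and Cdkn1a were just inside that cutoff, with log2 changes of 0.34 and 0.33. With the median change of the pair set to 0 they were past it, at 0.42 and 0.41, while Cdkn1b came within it at -0.34. They lay within it with the GC and length trend removed, at 0.30 and 0.25. Ccnd3 and Ccnd1 had changes of 0.25 and 0.18 and Ccne1 one of -0.12. The members with a GC content over 50% other than Ccne1 were thus higher with HU210 at this hour, and the 2 under 45% were lower.

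At 2 h, 0 of 7 members passed 1.3-fold, where 1.49% of all tested genes were higher and 3.91% lower. The largest change was that of Ccne2, -0.33, and it was -0.32 with the GC and length trend removed. Cdkn1a had one of 0.23 and Cdkn1b one of -0.18. Past 1.5-fold were 0 of 7 members at 2, 6 and 8 h, and of all tested genes 0.504% were higher and 1.45% lower at 2 h, 1.73% and 0.637% at 6 h, and 1.17% and 0.557% at 8 h. At 6 h, again 0 of 7 passed, against 6.39% higher and 1.72% lower of all tested genes, and the signs of several members were turned: Ccne2 was at 0.31, Cdkn1b at 0.30 and Ccne1 at 0.23, while Cdk4 was at -0.10 and Cdkn1a at -0.085. At 8 h, 0 of 7 passed, against 4.38% higher and 1.44% lower, with Ccnd1 at 0.26, Cdkn1a at 0.25, Ccne2 at 0.18 and Ccnd3 at 0.15. The correlation of the changes with GC content was weaker than in the 4 h pair, with Spearman's rho of 0.17 for the 2 h pair, -0.30 for the 6 h pair and -0.15 for the 8 h pair.

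**Figure D2:**
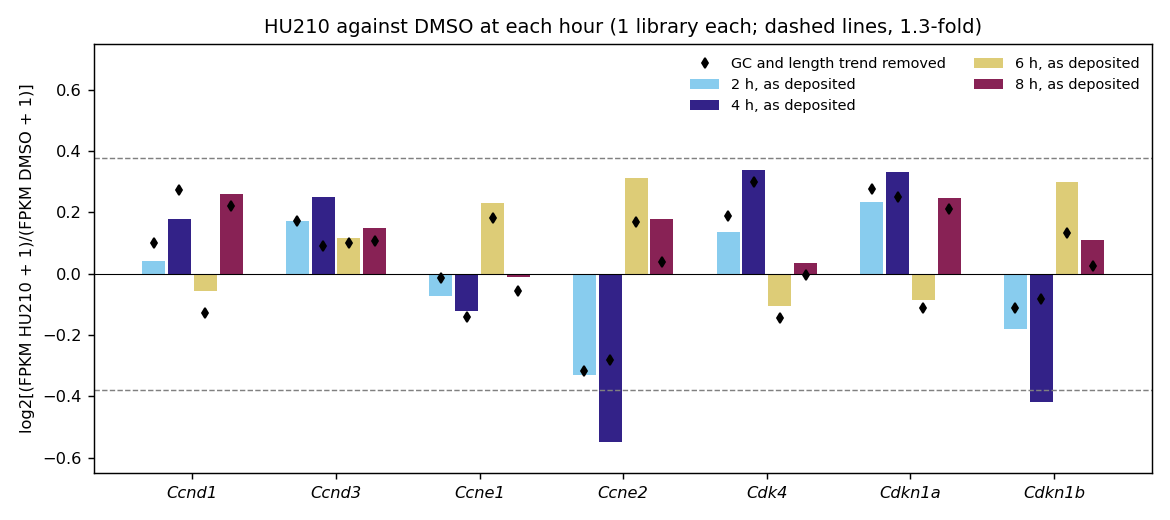
log2 change with HU210 against DMSO (vertical axis) of the 7 expressed members, with 1 bar per hour and diamonds for the value after the trend on GC content and transcript length was removed. Ccne2 and Cdkn1b cross the dashed 1.3-fold lines at 4 h, at -0.55 and -0.42, and their diamonds do not.

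**Figure D3:**
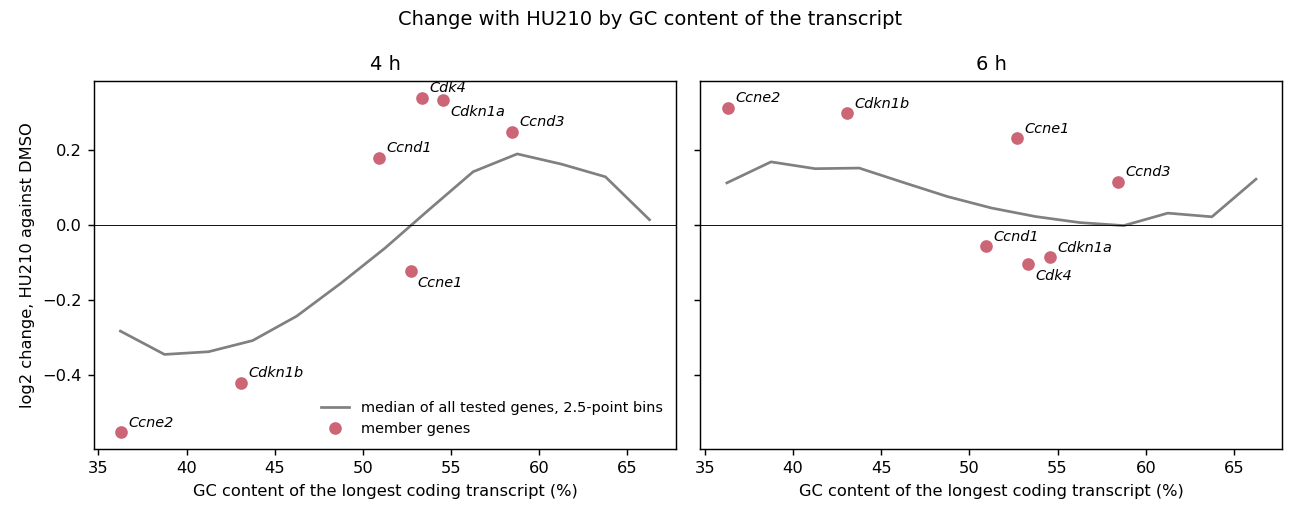
log2 change with HU210 (vertical axis) at 4 h and 6 h against the GC content of the longest coding transcript in percent (horizontal axis), with points for the 7 expressed members and a line for the median of the tested genes in bins of GC content. At 4 h the line is below 0 at low and above 0 at high GC content, with Ccne2 (36.3% GC) at -0.55 and Ccnd3 (58.4% GC) at 0.25.

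Over the 4 hours, the mean difference between HU210 and DMSO was small for each member. The limma fit with the hour as a block called 0 of 11306 genes at an adjusted p under 0.05, that is 0% higher and 0% lower, and 148 genes had an unadjusted p under 0.05. Cdkn1a had the largest mean log2 difference, 0.18 with a 95% interval from -0.043 to 0.41, and was higher with HU210 at 3 of 4 hours. Ccnd3 had one of 0.17, with an interval from 0.0033 to 0.34, and was higher at 4 of 4 hours, as were 4.5% of all tested genes (limma adjusted p = 1.0). Lower at 4 of 4 hours were 0 of 7 members and 3.51% of all tested genes. Its difference was 0.12 with the GC and length trend removed. Ccnd1 had a difference of 0.11 (interval -0.10 to 0.31) and Cdk4 one of 0.10 (interval -0.14 to 0.35). For Ccne1 the estimate was 0.0068 (interval -0.20 to 0.22), for Cdkn1b -0.048 (interval -0.36 to 0.27) and for Ccne2 -0.097 (interval -0.48 to 0.29). On the fold scale the intervals of the 7 genes reached no further than 0.716 at the low end and 1.33 at the high end. In 0 of the 7 genes did all HU210 libraries lie above or below all DMSO libraries, against 0.371% of the tested genes in each direction.

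The late hours (6 and 8 h) were set against the early hours (2 and 4 h) with the treatment as a covariate. This describes the members' values in both treatments over the hours after HU210 or DMSO was added to the serum-free medium. Whether the hours were normalized together is unknown, so a difference between hours may hold a difference in scaling. With limma, 0 of 11306 genes passed an adjusted p of 0.05, 0% in each direction, and 815 had an unadjusted p under 0.05. Cdk4 was lower at the late hours by a log2 difference of -0.21 (interval -0.43 to 0.0062, limma adjusted p = 0.70) and Ccne1 by -0.17 (interval -0.34 to 0.011, limma adjusted p = 0.71). For Ccnd1 the difference was 0.13 (interval -0.054 to 0.31), for Ccne2 -0.15 (interval -0.48 to 0.19), for Ccnd3 0.060, for Cdkn1b 0.037 and for Cdkn1a -0.014. The difference was also taken within each treatment, where its median over all tested genes was -0.058 with DMSO and 0.061 with HU210. The single libraries had their own trends. The deviation from a gene's mean level correlated with GC content, with Spearman's rho of -0.48 in the 4 h DMSO library. It was 0.48 in the 4 h HU210 library and between -0.17 and 0.29 in the others. The part of these trends in the differences was not tested. Ccne2 had a late minus early difference of -0.49 in the DMSO libraries and 0.20 in the HU210 libraries, and Cdkn1b had -0.21 and 0.29. For Cdk4 the corresponding values were -0.075 and -0.35.

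The test of that contrast is the interaction, the late minus early difference of the HU210 effect. Over all genes limma called 0 of 11306, or 0% in each direction, while 1786 had an unadjusted p under 0.05. The median interaction over all tested genes was 0.12, and -0.020 with the GC and length trend of each pair removed. Ccne2 had the largest interaction of the members, a log2 difference of 0.69 with an interval from 0.29 to 1.09 (limma adjusted p = 0.18). Its HU210 effect was -0.44 on average at the early hours and 0.25 at the late hours. Cdkn1b followed with 0.50 (interval 0.10 to 0.90, limma adjusted p = 0.24), from -0.30 early to 0.20 late. Both were lower with HU210 at 2 and 4 h and higher at 6 and 8 h, as were 25.1% of all tested genes. The opposite order of signs was seen in 0 of 7 members and in 5.22% of all tested genes. With the GC and length trend of each pair removed, the interactions were 0.40 for Ccne2 and 0.17 for Cdkn1b. Those of the other members were 0.21 for Ccne1, -0.27 for Cdk4, -0.20 for Cdkn1a, -0.079 for Ccnd3 and -0.0096 for Ccnd1, each with an interval that spans 0.

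**Figure D4:**
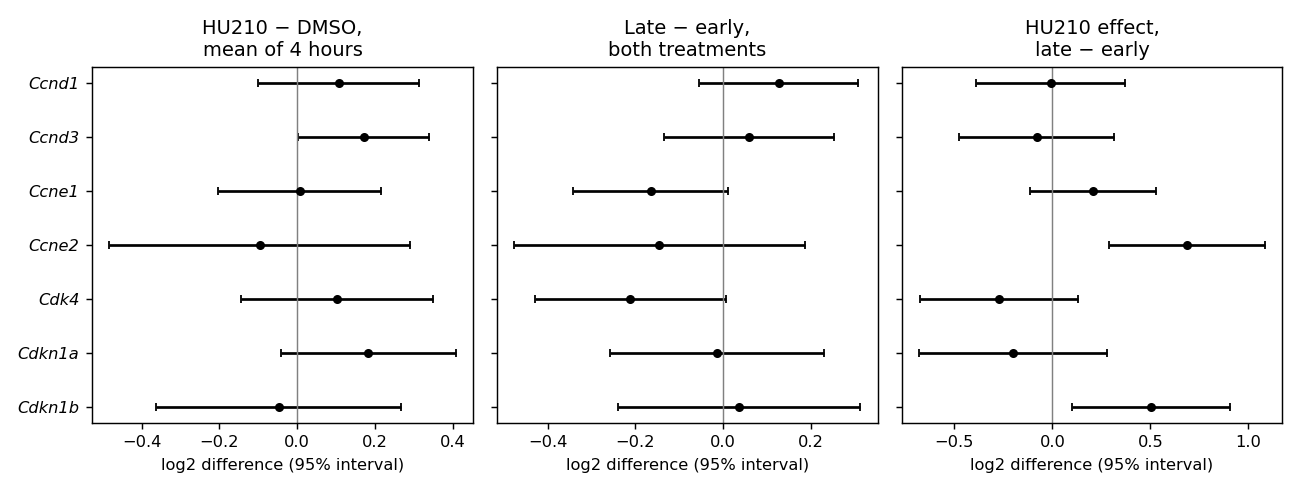
log2 differences (points) with 95% intervals (bars) from limma for the 7 expressed members, with the mean HU210 minus DMSO difference on the left, the late minus early difference in the middle and the late minus early difference of the HU210 effect on the right. The intervals of Ccne2 (0.29 to 1.09) and Cdkn1b (0.10 to 0.90) on the right and of Ccnd3 (0.0033 to 0.34) on the left lie above 0 before adjustment, and none of the 7 genes passed the adjusted threshold.

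The partners and targets of these genes were read from 5 lists, of which none held a gene that passed limma's adjusted p of 0.05 in the 3 comparisons. Mdm2 and Btg2 are in 2 of the lists. In bulk mRNA, fewer cells in a phase and less mRNA per cell cannot be told apart. Of the G1 pathway partners, with Cdk2, the retinoblastoma family, the E2F factors and the Cdkn2 inhibitors, 30 of 34 were tested. Past 1.3-fold, 1 was lower at 2 h, 2 were higher and 6 lower at 4 h, 4 were higher at 6 h and 1 was higher at 8 h. The 4 h counts stand beside 8.97% higher and 19.9% lower, and the 6 h count beside 6.39% higher, of all tested genes, and the 2 h and 8 h counts beside 3.91% lower and 4.38% higher. The largest changes were in Rbx1 (a ubiquitin ligase subunit) at 2 h, -0.39, in Rbl2 (the retinoblastoma relative p130) at 4 h, -1.34, with 2.20 FPKM under HU210 and 7.11 FPKM under DMSO, and in E2f5 at 6 h and 8 h, 0.65 and 0.49. The changes of Rbx1 at 2 h, and of E2f5 at 6 and 8 h, came within 1.3-fold when the DMSO mean over all hours was the reference, with -0.25, 0.31 and 0.17, and that of Rbl2 was -0.58. With the GC and length trend removed, they were -0.29 for Rbx1, -1.10 for Rbl2 and 0.53 and 0.41 for E2f5, so that only Rbx1 came within 1.3-fold.

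Of the 21 mitogen-responsive regulators, such as the Myc and FoxO families, 19 were tested. Past 1.3-fold, 2 were higher and 1 lower at 2 h, 1 was higher and 6 were lower at 4 h, 3 were higher at 6 h and none passed at 8 h, where Mycn had the largest change, 0.24. Of all tested genes 1.49% were higher and 3.91% lower at 2 h, 8.97% and 19.9% at 4 h, and 6.39% and 1.72% at 6 h. Of this list, 10 of 19 genes were higher at the late hours, with a median log2 difference of 0.0013. Myc, which binds the E-box seen before Cdk4, had 72.0 FPKM on average and changes between -0.026 and 0.086 at the 4 hours.

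Of the 18 p53 target genes, 15 were tested, and their median log2 changes at the 4 hours in turn were -0.051, -0.028, 0.095 and 0.064, beside -0.051, -0.081, 0.063 and 0.044 over all tested genes. Past 1.3-fold, 2 were higher at 2 h, and 3 were higher and 4 lower at 4 h. At 6 h 1 was higher and 1 lower, and at 8 h none passed. Of all tested genes 1.49% were higher and 3.91% lower at 2 h, and 8.97% and 19.9% at 4 h. The shares were 6.39% and 1.72% at 6 h, and 4.38% and 1.44% at 8 h. At the late hours 10 of the 15 were higher, with a median log2 difference of 0.043, beside -0.0072 over all tested genes. With the GC and length trend of each pair removed, it was -0.0045 beside -0.072 over all tested genes, and with that of each library removed 0.050 beside -0.0082. Gdf15, a secreted stress-response factor, had the largest change at 2 h, 0.47, at 4 h, 0.84, and at 8 h, 0.38, and was at -0.45 at 6 h. Sesn1 had the largest change at 6 h, 0.46, which was 0.21 with the DMSO mean over all hours as the reference.

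Most genes that act after G1 were lower at the late hours, none past the test. Of the 25 E2F target genes of S phase, 23 were tested, and 21 of them were lower at 6 and 8 h than at 2 and 4 h, with a median log2 difference of -0.15, beside 52.2% of genes lower and a median of -0.0072 over all tested genes. The median was -0.19 in the DMSO libraries alone and -0.15 in the HU210 libraries alone, beside -0.058 and 0.061 over all tested genes. Of the 22 G2 and M phase genes, 19 were lower late, with a median of -0.19, which was -0.22 in the DMSO and -0.084 in the HU210 libraries and -0.11 without the 2 h pair. Of the E2F target genes of S phase the median was -0.10 without the 2 h pair and -0.24 with the trend of each pair removed, where all tested genes had -0.072. Removal by pair left the DMSO libraries as they were, so their own trend stayed in that value. With the trend of each library removed, the medians were -0.17 for S phase and -0.17 for G2 and M phase, beside -0.0082 over all tested genes. The G1 pathway partners had 24 of 30 lower late and a median of -0.088, which was -0.17 in the DMSO and 0.015 in the HU210 libraries. The G1 median was -0.18 with the trend of each pair removed and -0.092 with that of each library removed. It was -0.16 without the 4 h pair, and -0.063 or -0.062 without the 2 h or the 8 h pair. These counts are a description of 8 libraries, with no test of the lists.

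Between HU210 and DMSO, 1 of the 23 S phase genes was lower past 1.3-fold at 2 h, and 1 at 6 h. At 4 h 1 was higher and 3 were lower. Of the 22 G2 and M phase genes, 1 was higher and 8 were lower at 4 h, and 1 was higher at 6 h. Of all tested genes 3.91% were lower at 2 h, and 8.97% were higher and 19.9% lower at 4 h. At 6 h 6.39% were higher and 1.72% lower. The largest changes of the S phase list were in Uhrf1 at 2 h, -0.46, Gins1 at 4 h, -0.61, Fen1 at 6 h, -0.43, and Slbp at 8 h, 0.37. Those of the G2 and M phase list were in Cdc25b at 2 h, -0.29, Mki67 at 4 h, -0.61, Nusap1 at 6 h, 0.45, and Ccnb1 at 8 h, 0.31. With the DMSO mean over all hours as the reference, Gins1 and Mki67 stayed past 1.3-fold (-0.43 and -0.45). Uhrf1 (-0.34), Fen1 (-0.22) and Nusap1 (0.20) came within it. With the GC and length trend removed, Uhrf1 (-0.43), Gins1 (-0.47) and Fen1 (-0.47) stayed past 1.3-fold. Mki67 (-0.32) and Nusap1 (0.27) came within it. Slbp, Cdc25b and Ccnb1 were within it from the start and under both alternatives. Over the 4 hours, the mean change was negative in 18 of the 23 S phase and 15 of the 22 G2 and M phase genes. Of all tested genes 51.6% were lower. Without the 4 h pair the counts were 16 and 11, beside 40.8% of all tested genes. No test was made of the lists.

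**Figure D5:**
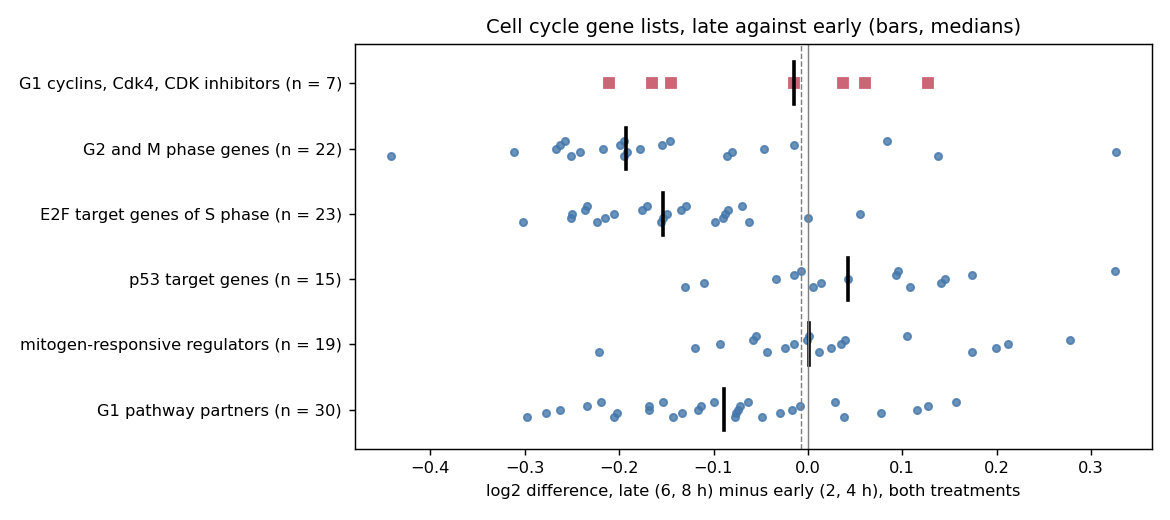
log2 difference between the late and the early hours over both treatments (horizontal axis) for each tested gene of the 5 lists (circles) and the 7 expressed members (squares), with bars at the medians and a dashed line at the median of all tested genes. The E2F target genes of S phase (median -0.15) and the G2 and M phase genes (median -0.19) sit mostly below 0.

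The genes whose level followed a member most closely over the 8 libraries were found by Pearson's correlation of log2(FPKM + 1) among all tested genes. These values come from the same 8 libraries and are descriptions. For Ccne2 they were Mastl and Ociad1, with r of 0.98 each, and for Cdkn1b Ogfrl1 (0.98) and Bag4 (0.97). The transcripts of these 4 genes had a GC content of 40.5% to 43.6%. For Cdk4 they were Mrpl22 (0.99) and Bysl (0.97), for Ccne1 Hp1bp3 (0.98) and Iscu (0.97), for Ccnd1 Pde4a (0.97) and Pecam1 (0.96), for Ccnd3 Sh2b2 (0.97) and Rbm10 (0.95), and for Cdkn1a Plk3 and Cpsf3l (0.95 each). Of these genes, Pecam1 (1.04 FPKM), Ogfrl1 (1.51 FPKM) and Pde4a (1.97 FPKM) had a mean level near the filter of 1 FPKM. Among the members themselves, the closest pair was Ccne2 and Cdkn1b, with r of 0.83, and the most opposed was Ccnd1 and Ccne1, with r of -0.70.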

How the data were processed

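mRNA was sequenced in 8 libraries, 1 per treatment and hour. Per the submitters' processing notes, reads were mapped to mm9 with TopHat2 2.0.8, Bowtie2 2.1.0 and SAMtools 0.1.7. The FPKM values that the authors deposited come from Cufflinks with upper-quartile normalization and with corrections for fragment bias and for reads that map to several places. They carry an added 1, which was subtracted here. Whether the hours were normalized together is not given in the sources used here. Comparisons across hours, and those with the DMSO mean over all hours, may therefore hold a difference in scaling. The deposited columns of log2 fold change, p-value and adjusted p, and the table of differentially expressed genes, hold the authors' own comparisons and were not used.

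Genes were keyed by Ensembl identifier, and 15888 had values at each of the 4 hours. Genes with a mean FPKM of at least 1 were tested with limma 3.58.1 (moderated test with trend, R 4.3.3) on log2(FPKM + 1), with Benjamini-Hochberg adjustment. The 3 fits had 3, 5 and 4 residual degrees of freedom. No p was computed for a single hour. The test steps were tested on simulated data. GC content and length are those of the longest coding transcript of GENCODE vM1 on mm9, known for 93.6% of the tested genes. Values with the trend removed cover only these genes. The trend was fitted by loess (span 0.3, degree 1). Alternatives were a pseudocount of 0.1, no filter, centring, each hour left out, removal of that trend, the DMSO mean over all hours as the reference, 1.5-fold, a slope per hour, each treatment alone and no block. Removal of the trend library by library was added after the data had been seen. The named genes are the 10 members, for each expressed member the 2 genes most correlated with it, and of each list the gene with the largest change at each hour. Some results that this rule would name are not reported here. Myc, named with its value for its link to the E-box, was chosen after its values had been seen. The members and lists were chosen with earlier results of these data known.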

Additional observations from a re-analysis of the deposited data

Results flagged for a closer look

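Ccne2 and Cdkn1b had opposite signs of the HU210 effect at the early and the late hours. Both libraries with HU210 at 2 and 4 h were below their DMSO library, and both at 6 and 8 h were above it. The late minus early difference of the effect was 0.69 for Ccne2 (limma adjusted p = 0.18, and between 0.064 and 0.96 under the alternatives) and 0.50 for Cdkn1b (limma adjusted p = 0.24, and between 0.13 and 0.96 under the alternatives), so neither difference passed the test. Among all tested genes, 25.1% had the same order of signs. The GC content of the 2 transcripts, 36.3% and 43.1%, is in the range where the median change of all genes was negative at 4 h and positive at 6 h. With the GC and length trend removed, the differences were 0.40 for Ccne2 and 0.17 for Cdkn1b. The same removal took the change at 2 h from -0.33 to -0.32 for Ccne2 and from -0.18 to -0.11 for Cdkn1b. The part of the GC trend in the 2 differences was not tested.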

How the results depend on the processing

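Of 224 values of the 7 members under the alternatives, 0 passed limma's adjusted p of 0.05, the smallest was 0.064, and 204 kept their direction. The other 20 turned. For the mean drug effect, leaving out an hour gave -0.068 to 0.050 for Ccne1, -0.23 to 0.054 for Ccne2 and -0.16 to 0.076 for Cdkn1b, the last 2 turning without the 4 h pair, and Ccne1 was -0.0064 with the trend of each pair, or of each library, removed. For late minus early, leaving out an hour gave -0.038 to 0.16 for Ccnd3, -0.15 to 0.12 for Cdkn1a and -0.035 to 0.11 for Cdkn1b. Cdkn1b was -0.13 with the trend of each pair removed, -0.0061 as a slope per hour and -0.21 in the DMSO libraries alone. With the trend of each library removed, Cdkn1b kept its direction at 0.025. Cdkn1a was 0.012 with the trend of each library removed and 0.087 in the DMSO libraries alone, and Ccne2 was 0.20 in the HU210 libraries alone. For the interaction, Ccnd1 was -0.17 to 0.15 when an hour was left out and 0.021 as a slope. The cause was not tested.

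The count of genes called went from 0 to 1 for late minus early (Dpysl2) with the trend of each library removed. For the interaction it was 7 without the filter, and 0 to 1 when an hour was left out, the 1 gene (a copy of SNORA38) appearing without the 6 h pair. These genes were named after their values were seen. Without the hour as a block, 0 genes passed for the mean effect. Members past 1.3-fold at 4 h went from 2 to 0 with the DMSO mean over all hours as the reference, with the trend removed, and at 1.5-fold. The members past it were others when the median change of the 4 h pair was set to 0. Ccne2 (-0.47), Cdk4 (0.42) and Cdkn1a (0.41) were then past 1.3-fold, and Cdkn1b (-0.34) was not. All genes past 1.3-fold numbered 610, 3264, 916 and 658 at the 4 hours in turn. With the trend removed they were 367, 1901, 553 and 398, counted over the 10585 genes with a known GC content and not over all 11306. At 1.5-fold they were 221, 1296, 268 and 195. With the DMSO mean as the reference they were 786, 872, 462 and 349, more than in the main comparison at 2 h and fewer at the other hours. With 1 library per condition, a difference at a single hour has no replicate error.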

Other observations

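Some ratios within a library belong to none of the comparisons. Cdkn1a made up 60.8% and 61.3% of the summed inhibitor mRNA with HU210 at 2 and 4 h, and 53.5% and 47.9% with DMSO. The later HU210 libraries had 49.6% and 58.3%, and the later DMSO libraries 56.4% and 55.9%. The summed level of the inhibitors was 54.9 to 64.7 FPKM with HU210 and 54.9 to 62.2 FPKM with DMSO, without Cdkn1c at 8 h, where it has no value. The ratio of Cdk4 to the summed D-type cyclins was 3.87, 3.61, 2.85 and 2.62 with HU210 at 2, 4, 6 and 8 h, and 3.69, 3.27, 3.02 and 3.02 with DMSO. It was higher at the early than at the late hours in both treatments. No test was made of these ratios.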
